A study of Mus musculus with 13 samples.

Results

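The Shank, Dlg and Dlgap genes encode the layered scaffold under the postsynaptic membrane of excitatory synapses, and 10 of them were followed through 13 RNA sequencing libraries of the mouse CA1 region. They are Dlg1 (SAP97), Dlg2 (PSD-93), Dlg3 (SAP102) and Dlg4 (PSD-95), Dlgap1, Dlgap2 and Dlgap3 (SAPAP or GKAP proteins), and Shank1, Shank2 and Shank3. The genes were chosen by name as members of these families, with earlier results of these data known. All 10 were found among the 55291 gene symbols counted. Dlgap4 (SAPAP4) is of the same family but was not among the 10, and it is described with the relatives below. Each library was made from one CA1 region, cut out of a single organotypic entorhino-hippocampal culture from wildtype mice (C57BL/6). Cultures were prepared at postnatal day 4 to 5 from animals of either sex and had matured in vitro for 18 days or more. The groups were 5 non-lesioned controls, 4 cultures after Schaffer collateral lesion (SCL), which cuts the axons from CA3 to CA1, and 4 cultures after entorhinal cortex lesion (ECL), which cuts the perforant path. Tissue was collected 3 days after the lesion, and the scar was left out.

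PSD-95 and its relatives are membrane-associated guanylate kinases (MAGUKs). Their PDZ domains hold glutamate receptors, ion channels and adhesion proteins at the synapse. SAPAP proteins bind the guanylate kinase domain of the MAGUKs on one side and the PDZ domain of Shank proteins on the other. Shank proteins bind Homer and the actin cytoskeleton deeper in the spine, so the 3 families form a chain from receptors to the cytoskeleton. In the hippocampus this chain is a main component of the postsynaptic density of pyramidal neurons.

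Total counts were 14371152 to 21092612 in control libraries, 16405517 to 56786613 after SCL and 20210165 to 46449937 after ECL. The titles name CA1 as the tissue, while the extraction protocol in the labels names the dentate gyrus. Of the 7 CA1 markers examined, none was at 0 in any library, and Mpped1 and Fibcd1 had control medians of 2965 and 1970 normalized counts against 186 for Wfs1. Over all libraries, the 7 CA1 markers summed to between 8123 and 12083. The 5 CA3 markers summed to between 709 and 2977, and the 5 dentate granule cell markers to between 604 and 957. The control medians of Cpne4 and Bok (CA3, 676 and 369) and of Prox1 and Pdzd2 (dentate, 377 and 400) were above that of Wfs1. Below it were Grik4, Iyd and Cdh24 (CA3, 156, 7.89 and 27.5) and C1ql2, Dsp and Tdo2 (dentate, 2.56, 14.4 and 69.4). A normalized count is a count divided by the relative size of its library, and all values per library below are on this scale. Replicates carry the numbers of their titles. By the column headings, 2 of 5 control, 1 of 4 SCL and 3 of 4 ECL libraries were from males. Tests against control used 8 of the 10 scaffold genes, because Shank3 and Dlgap3 lay under the minimum mean normalized count of 150.

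In control CA1, Dlgap1 was the most abundant scaffold RNA per length, at 35.6 ± 4.05 CPM (counts scaled to the library total) per kb of merged exons (SD, n = 5). Dlg3 followed with 11.2 ± 0.932 CPM per kb. The ranges of these 2 genes were separate from each other and from those of all genes below them. Dlgap2, Shank2, Dlg1, Shank1, Dlg4 and Dlg2 came next, from 6.94 ± 1.30 down to 2.47 ± 0.526 CPM per kb, and each overlapped its neighbour in the order. Dlgap3 (0.822 ± 0.393) and Shank3 (0.330 ± 0.180) were lowest on the same scale, separate from Dlg2 but not from each other. After SCL and ECL, Dlgap1, Dlg3, Dlgap2, Shank2 and Dlg1 kept the first places in this order by mean. Shank1 stood in place 6 in control and in place 9 after either lesion, at 1.55 ± 0.448 (SCL, n = 4) and 1.12 ± 0.5005 (ECL, n = 4) CPM per kb. Its range then overlapped that of Dlgap3, whose control range lay below that of Shank1. With the length of the longest transcript in place of merged exons, Shank1 stood in place 8 in control, just above Dlgap3, and the ranges of these 2 genes were still separate.

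**Figure D1:**
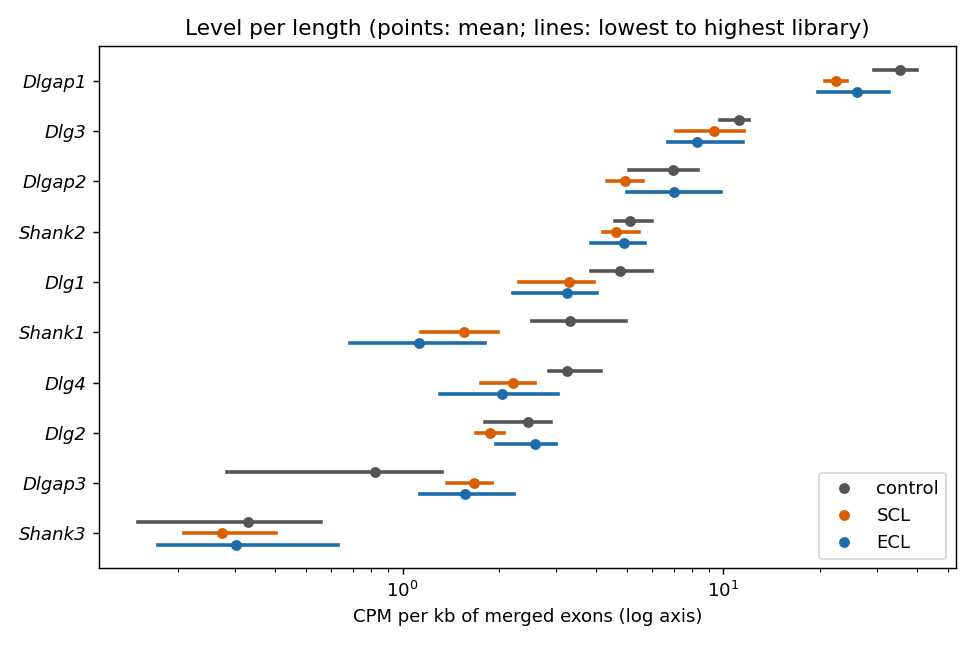
CPM per kb of merged exons (log axis) for the 10 scaffold genes in control (grey), SCL (orange) and ECL (blue). Points are means and lines run from the lowest to the highest library, and Shank1 is the gene whose lesion ranges (at most 1.99 after SCL and 1.81 after ECL) lie farthest to the left of its control range (at least 2.54).

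The genes lie on several chromosomes (GRCm38, GENCODE M21 annotation). Shank1 spans chr7:44310253-44360572, and Shank2 lies far away on the same chromosome at chr7:144001928-144424494. Dlg4 spans chr11:70016942-70047522, Dlg1 chr16:31663443-31875129 and Dlgap1 chr17:69969073-70821413, all on the plus strand. RefSeq promoter windows (GRCm38.p6, from 250 bases before to 50 after a transcript start) were at hand for 7 of the 10 genes, in 16 windows. Dlg1, Dlg4 and Dlgap1 are shown because their RNA fell after both lesions, each with the window of the gene that holds the most CpG. Capitals mark matches on either strand to the letters GCGTGGGCG or GCGGGGGCG (EGR), TGACGTCA (cAMP response element), TGACG (its core, contained in the former) or CACGTG (E-box).
Dlg1, chr16:31663685-31663984, plus strand: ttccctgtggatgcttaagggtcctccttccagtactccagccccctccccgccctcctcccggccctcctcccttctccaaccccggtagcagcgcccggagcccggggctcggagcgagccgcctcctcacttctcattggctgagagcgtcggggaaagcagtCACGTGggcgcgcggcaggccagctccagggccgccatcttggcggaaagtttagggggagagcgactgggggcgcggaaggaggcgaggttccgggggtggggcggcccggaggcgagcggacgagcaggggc
Dlg4, chr11:70023732-70024031, plus strand: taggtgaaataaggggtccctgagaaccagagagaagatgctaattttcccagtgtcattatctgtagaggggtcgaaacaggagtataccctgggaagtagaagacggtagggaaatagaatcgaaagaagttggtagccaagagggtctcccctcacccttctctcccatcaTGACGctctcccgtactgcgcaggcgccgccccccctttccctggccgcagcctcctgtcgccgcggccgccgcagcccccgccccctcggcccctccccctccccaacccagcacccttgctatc
Dlgap1, chr17:69968823-69969122, plus strand: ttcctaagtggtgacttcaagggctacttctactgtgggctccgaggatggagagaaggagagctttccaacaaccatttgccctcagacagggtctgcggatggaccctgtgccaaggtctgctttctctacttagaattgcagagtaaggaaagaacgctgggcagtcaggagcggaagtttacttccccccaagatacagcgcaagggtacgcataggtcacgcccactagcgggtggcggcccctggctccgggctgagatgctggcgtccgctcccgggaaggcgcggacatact
The Dlg1 window shown holds one E-box at base 167, the Dlg4 window one TGACG at base 175, and the Dlgap1 window none of the letters searched. Windows not shown hold a further CACGTG in Dlg1 (base 241) and one in Dlgap1 (base 149). Of all 32851 windows in the table, 7.15% held CACGTG and 20.8% held TGACG, beside 3 and 2 of the 16 windows of the scaffold genes. TGACGTCA was in 1.79% of all windows and in none of the 16 windows of the scaffold genes. The Shank3 window held both EGR forms, which were in 0.612% (GCGTGGGCG) and 2.91% (GCGGGGGCG) of all windows. A match to these letters is a description of the sequence only.

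SCL and ECL were each compared with control to ask how the scaffold RNAs stood in CA1 after the loss of either input. After SCL, 5 of the 8 genes tested fell (Shank1, Dlg1, Dlg4, Dlgap1 and Dlgap2) and none rose. After ECL, 5 of 8 fell (Shank1, Dlg1, Dlg3, Dlg4 and Dlgap1) and none rose. Tests were edgeR quasi-likelihood tests with Benjamini-Hochberg adjustment over all genes tested. As background, 24.9% of the 11438 genes tested after SCL passed in either direction and 11.7% passed as lower, and the corresponding shares after ECL were 27.8% and 12.5% of 11212 genes. The median log2 fold change of the 8 scaffold genes was -0.54 after SCL and -0.48 after ECL, beside 0.01 and -0.01 for all genes tested. Groups did not overlap for 5 of the 8 genes after SCL (background 23.7%) and for 3 of 8 after ECL (background 25.1%). Both comparisons use the same 5 control libraries, so they are not independent of each other. In bulk tissue, fewer cells of a type and less RNA per cell cannot be told apart.

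**Figure D2:**
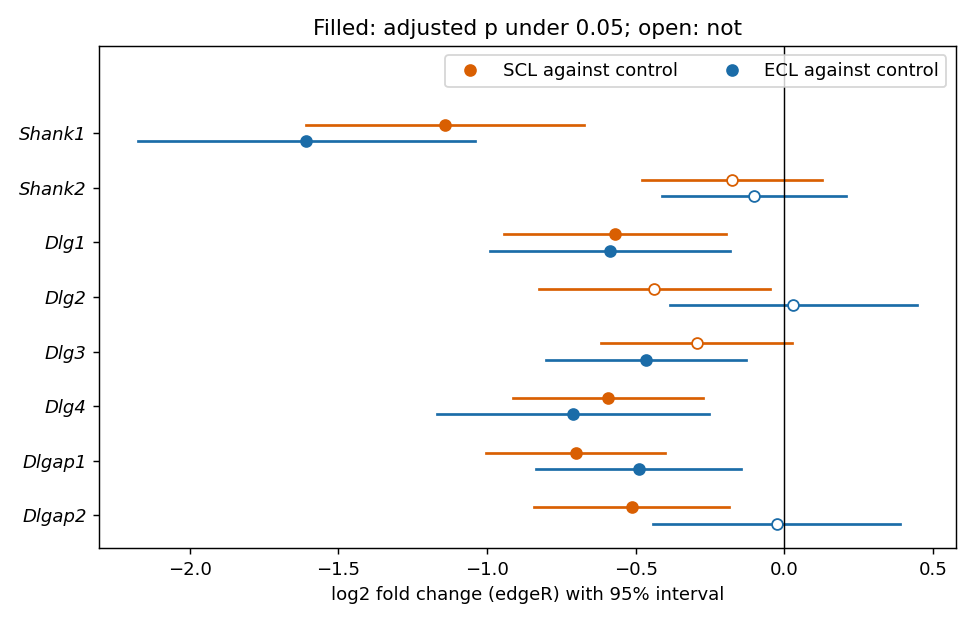
Log2 fold changes (edgeR) with 95% intervals for the 8 scaffold genes tested, after SCL (orange) and ECL (blue) against the same 5 controls. Filled points passed the adjusted threshold of 0.05, and Shank1 lies farthest from 0, at -1.14 and -1.61.

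Long genes stood lower than short genes after both lesions, and the scaffold genes are long. With the genes in 4 classes of equal size by exon length, the median log2 fold change was 0.29 (SCL) and 0.33 (ECL) in the class of the shortest genes and -0.21 and -0.19 in that of the longest. Of the 8 scaffold genes tested, 6 are in the class of the longest genes and the other two in the class below it. With an offset for length and GC content in each library, Shank1 kept its call after both lesions, at -0.86 (adjusted p = 0.00506) and -1.47 (adjusted p = 0.000110) on the log2 scale. Of the other calls, only those of Dlgap2 after SCL (-0.48, adjusted p = 0.0225) and Dlg3 after ECL (-0.38, adjusted p = 0.0446) passed with this offset. The scale mattered as well: with trimmed-mean factors over all symbols, the median of all genes tested moved to 0.21 after SCL and 0.18 after ECL. Under that scaling Shank1 and Dlgap1 passed after SCL and only Shank1 passed after ECL, and the share of higher genes among all calls went from 52.9% to 80.8% (SCL) and from 54.9% to 77.7% (ECL). Relative to the moved median, Shank1 stood at -1.14 after SCL and -1.61 after ECL on the log2 scale.

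**Figure D3:**
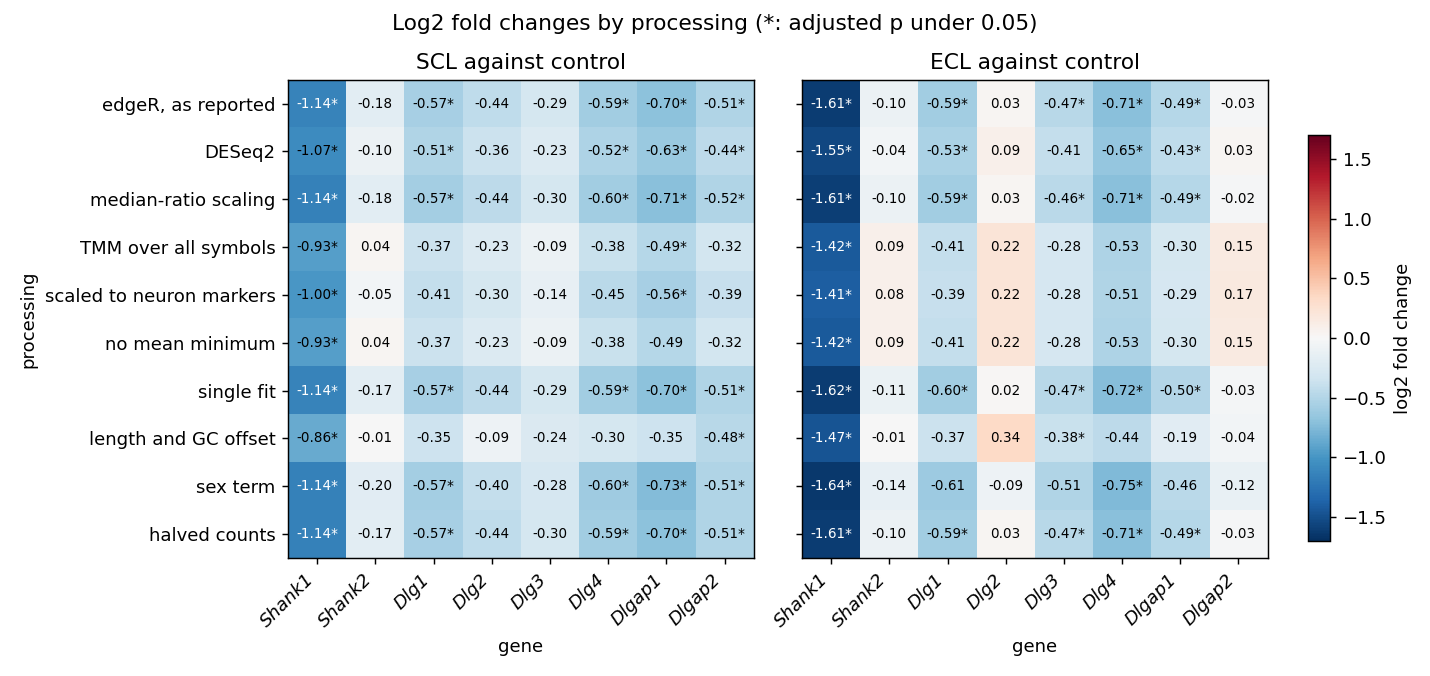
Log2 fold change of each scaffold gene (columns) under 10 ways of processing (rows), after SCL (left) and ECL (right) against control, with the colour scale in log2 units. Stars mark adjusted p under 0.05, and the Shank1 column has a star in every row of both panels, between -1.14 and -0.86 (SCL) and between -1.64 and -1.41 (ECL).

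Shank1, a scaffold of the deep layer that is largely restricted to brain, fell most. Its control libraries 1 to 5 held 745, 717, 1192, 722 and 858 normalized counts. The 4 SCL libraries held 322, 454, 286 and 478, and the 4 ECL libraries 178, 213, 432 and 285. Every lesioned library lay below every control library. Shank1 fell by 1.14 ± 0.22 on the log2 scale after SCL (SE, adjusted p = 0.00436), to 0.453 of control. After ECL it fell by 1.61 ± 0.26 (SE, adjusted p = 0.000856), to 0.328 of control. It was called in all 20 alternatives run for each lesion, between -1.26 and -0.86 (SCL) and between -1.90 and -1.41 (ECL). Of its exon bases, 3.22% are shared with the antisense gene 1700008O03Rik, and reads there cannot be told apart without strand.

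Shank2, its close relative, did not pass the test after either lesion. Controls held 1458, 1149, 1476, 1383 and 1253 normalized counts, SCL libraries 1169, 1138, 1402 and 1052, and ECL libraries 1022, 1312, 1397 and 1249. The groups overlapped. Its log2 fold change was -0.18 after SCL (95% interval -0.48 to 0.13, adjusted p = 0.377) and -0.10 after ECL (-0.41 to 0.21, adjusted p = 0.632), and its sign was negative in 18 of 20 alternatives after SCL and in 17 of 20 after ECL. Shank3, the family member best known from human developmental disorders, had few counts. Its raw counts ran from 22 to 117 over all libraries, and its normalized counts were 34.7 to 119 in control, 44.0 to 85.0 after SCL and 39.2 to 132 after ECL. These ranges overlapped, and at this depth no difference was detectable. The planned fit without a mean minimum gave log2 fold changes of -0.11 ± 0.44 after SCL and 0.01 ± 0.43 after ECL (SE, adjusted p = 0.892 and 0.989). With the scaling kept, in a fit added after seeing the data, they were -0.29 ± 0.45 and -0.16 ± 0.43 (adjusted p = 0.671 and 0.818), so the sign after ECL turned with the scaling.

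The ratio of Shank1 to Shank2 counts within a library depends on no scaling between libraries. It was 0.511 to 0.808 in control (median 0.624), 0.204 to 0.454 after SCL (median 0.337) and 0.163 to 0.310 after ECL (median 0.201). All lesioned libraries lay below all controls, and SCL and ECL libraries overlapped. Per length, Shank1 made up 37.5 ± 4.35% of the Shank family RNA in the 5 controls (SD), 23.9 ± 6.15% in the 4 SCL libraries and 17.2 ± 3.89% in the 4 ECL libraries. The share of Shank2 was 58.8 ± 4.75%, 71.8 ± 6.77% and 78.3 ± 5.75% in the same order. Of 15 such ratios between scaffold genes, computed with the values known and not tested, 4 are given with values. Of the others, Dlgap3 to Shank2 lay above all controls after both lesions, and Dlg1 to Shank2 lay below them after ECL only. All the rest overlapped control after both lesions, among them Dlg4, Dlg3, Dlg2 and Dlgap2 to Shank2.

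**Figure D4:**
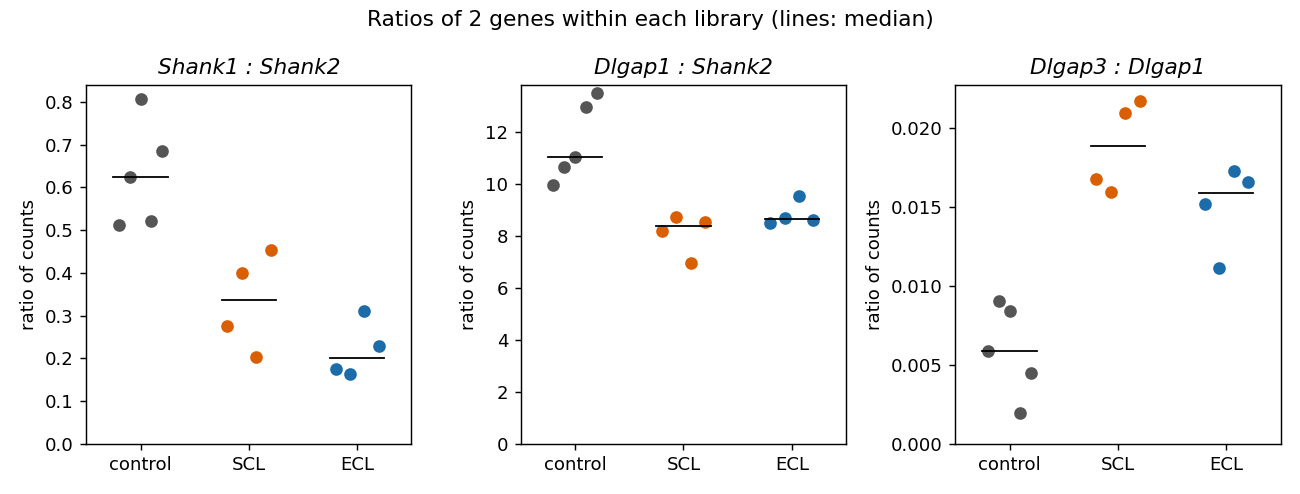
Ratio of raw counts of 2 genes within each library, for Shank1 to Shank2 (left), Dlgap1 to Shank2 (middle) and Dlgap3 to Dlgap1 (right), with lines at the group median. All lesioned libraries lie below the controls in the left and middle panels (medians 0.624 and 11.05 in control) and above them in the right panel (control median 0.00587).

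Among the MAGUKs, Dlg4 (PSD-95, the core MAGUK of mature excitatory synapses) fell after both lesions. Controls held 932, 1022, 1257, 1023 and 978 normalized counts. SCL libraries held 603, 787, 655 and 721, and ECL libraries 491, 427, 923 and 696. All lesioned libraries lay below all controls, although ECL replicate 3 was close to the lowest control. The fall was 0.59 ± 0.15 on the log2 scale after SCL (SE, adjusted p = 0.0132), to 0.663 of control, and 0.71 ± 0.21 after ECL (SE, adjusted p = 0.0239), to 0.611 of control. The SCL call held without any one library. The ECL call was lost without control replicate 3 (adjusted p = 0.0513), ECL replicate 1 (0.0849) or ECL replicate 2 (0.0744).

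Dlg1 (SAP97), a MAGUK involved in the trafficking of AMPA receptors, fell by a like amount after either lesion. Control libraries held 1153, 1044, 1290.3, 1125 and 1613 normalized counts. SCL libraries held 638, 949, 802 and 967, and ECL libraries 583, 971, 984 and 760.2. Both lesioned groups lay below every control. Dlg1 fell by 0.57 ± 0.17 after SCL (log2, SE, adjusted p = 0.0308) and by 0.59 ± 0.19 after ECL (adjusted p = 0.0324). The SCL call was lost without control replicate 3 or 5 or SCL replicate 1 or 3 (adjusted p = 0.0537 to 0.0869). The ECL call was lost without control replicate 3 or 5 or ECL replicate 1 or 4 (adjusted p = 0.0528 to 0.0978), and with a term for sex (adjusted p = 0.0609).

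Dlg3 (SAP102), the X-linked MAGUK that is prominent early in synapse development, was the steadiest scaffold gene in control. Its 5 controls lay between 1511 and 1649 normalized counts, a coefficient of variation of 3.69%. SCL libraries held 1073, 1506, 1046 and 1550.2, and ECL libraries 967, 966, 1528 and 1109. The lesioned groups spread more widely (coefficients of variation of 20.95% and 23.3%), with 3 of 4 libraries below every control in each. Dlg3 did not pass after SCL (log2 fold change -0.29 ± 0.15, SE, adjusted p = 0.161). It fell by 0.47 ± 0.16 after ECL (SE, adjusted p = 0.0399). This call was lost without control replicate 1, 2, 3 or 5 or ECL replicate 1, 2 or 4 (adjusted p = 0.0577 to 0.124). The call was also lost with a term for sex (adjusted p = 0.0533) and with a block for replicate number (adjusted p = 0.0608). With DESeq2 (Wald test) Dlg3 was not called after ECL either (log2 fold change -0.41, adjusted p = 0.0549). Dlg2 (PSD-93), a close relative of PSD-95, passed after neither lesion. Controls held 1126, 1041, 736, 1271 and 742 normalized counts, SCL libraries 713, 646, 800 and 745, and ECL libraries 783, 1147, 945 and 1125. Its log2 fold change was -0.44 after SCL (95% interval -0.83 to -0.05, adjusted p = 0.0923) and 0.03 after ECL (-0.38 to 0.45, adjusted p = 0.924), and the sign after ECL was negative in 6 of 20 alternatives.

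**Figure D5:**
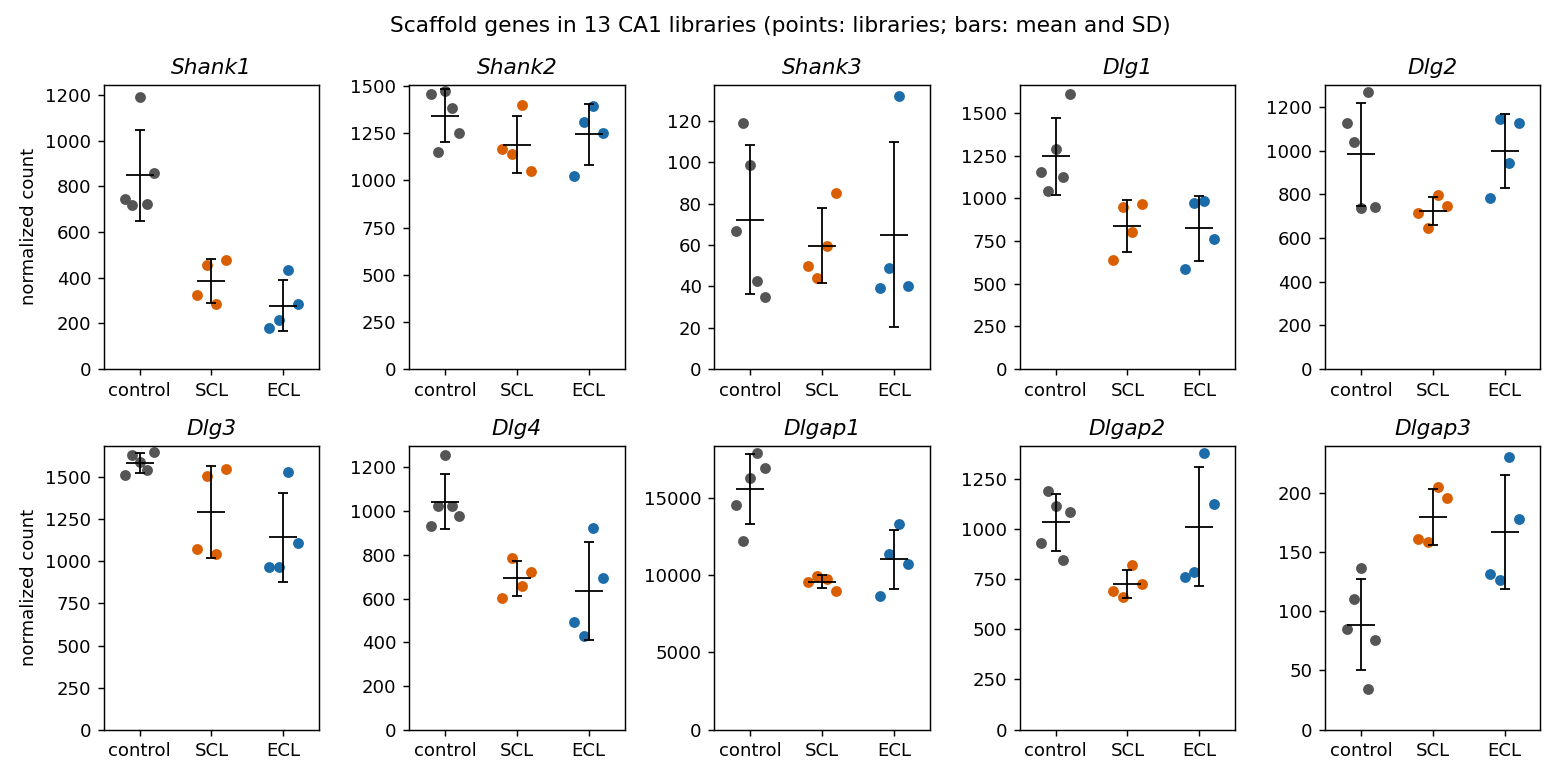
Normalized counts of the 10 scaffold genes in every library (points) with group mean and SD (bars), on axes that start at 0. SCL libraries lie below all controls for Shank1, Dlg1, Dlg4, Dlgap1 and Dlgap2 and above them for Dlgap3, and ECL libraries lie below all controls for Shank1, Dlg1 and Dlg4.

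Dlgap1 (SAPAP1 or GKAP), the link between PSD-95 and Shank with the highest level here, fell after both lesions. Controls held 14515, 12234, 16306, 17921 and 16908 normalized counts. SCL libraries held 9578, 9951, 9779.8 and 8981, and ECL libraries 8680.4, 11399, 13321 and 10746. SCL libraries were close together (coefficient of variation 4.42%) and all below control, while ECL replicate 3 lay above the lowest control. Dlgap1 fell by 0.70 ± 0.14 after SCL (log2, SE, adjusted p = 0.00503), to 0.615 of control, and this call held without any one library. After ECL it fell by 0.49 ± 0.16 (SE, adjusted p = 0.0360), to 0.713 of control. That call was lost without control replicate 1, 3, 4 or 5 or ECL replicate 1, 2 or 4 (adjusted p = 0.0532 to 0.101), and with a term for sex (adjusted p = 0.0908). Within libraries, the ratio of Dlgap1 to Shank2 counts was 9.95 to 13.5 in control, 6.98 to 8.75 after SCL and 8.49 to 9.54 after ECL, with both lesioned groups below every control. The merged exons of Dlgap1 and Shank2 differ in length (17890 and 10768 bases). With the length and GC offset, Dlgap1 passed after neither lesion (-0.35 and -0.19, adjusted p = 0.0569 and 0.280, edgeR).

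Dlgap2 (SAPAP2) fell after SCL. Controls held 929.7, 1187, 1116, 844 and 1084 normalized counts, and SCL libraries 691, 659, 822 and 724, all below control. The fall was 0.51 ± 0.15 (log2, SE, adjusted p = 0.0272), and it was lost without control replicate 2 or 3 or SCL replicate 1 or 2 (adjusted p = 0.0506 to 0.0809). ECL libraries held 758, 783, 1377 and 1121, on both sides of the control range. The log2 fold change after ECL was -0.03 (95% interval -0.44 to 0.39, adjusted p = 0.938) and turned positive with DESeq2 (0.03), with trimmed-mean factors over all symbols (0.15) and with scaling to neuron markers (0.17).

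Dlgap3 (SAPAP3), known from the striatum, went the other way from a low level. Controls held 85.2, 110.1, 136, 34.6 and 75.7 normalized counts, SCL libraries 161, 158, 204 and 195, and ECL libraries 132, 127, 230 and 178. All SCL libraries lay above every control, and 2 of 4 ECL libraries did. In a fit of all symbols with a count, added after its values were seen and with the scaling kept, Dlgap3 rose by 1.02 ± 0.34 after SCL (log2, SE, adjusted p = 0.0332) and by 0.92 ± 0.34 after ECL (adjusted p = 0.0444). In that fit 11.4% of 48069 symbols passed after SCL and 18% of 47784 after ECL. The ratio of Dlgap3 to Dlgap1 counts within libraries was 0.00193 to 0.00900 in control, 0.0159 to 0.0217 after SCL and 0.0111 to 0.0172 after ECL. The merged exons of Dlgap3 and Dlgap1 measure 4521 and 17890 bases. Dlgap3 was not in the fits against control with the length and GC offset. Per length, Dlgap3 made up 1.89 ± 0.861% of the 3 SAPAP RNAs in control, 5.74 ± 0.742% after SCL and 4.47 ± 0.647% after ECL (SD). Its deposited counts were 27 to 89 in control libraries and 124 to 392 in lesioned ones, which were sequenced more deeply for the most part.

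Summed over each family, the lesioned libraries held fewer normalized counts on average, and no test was made of these sums. The 4 Dlg genes together held 4857 ± 121 normalized counts in the 5 controls (SD), 3550.4 ± 460.2 in the 4 SCL libraries and 3602 ± 640.1 in the 4 ECL libraries. The 3 Shank genes held 2263 ± 299, 1634 ± 85.8 and 1587 ± 295 in the same order. The 3 Dlgap genes held 16698 ± 2146, 10476 ± 419.8 and 12213 ± 2190.3, with Dlgap1 supplying most counts.

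ECL was then compared with SCL directly, to ask whether the lesions differed. More ECL than SCL libraries were from males, so lesion and sex are partly confounded in this comparison. Shank3 was under the minimum, and 0 of the 9 other scaffold genes passed in the edgeR test, where 0% of 12232 genes passed. DESeq2 also called 0 of the scaffold genes and 71 of all genes. No scaffold gene had groups that did not overlap (background 3.74%). At an unadjusted p under 0.05 there were 2 scaffold genes, Dlg2 and Dlgap2, of 9 (background 7.33%). Dlg2 was higher after ECL by a log2 difference of 0.47 (95% interval 0.13 to 0.81, unadjusted p = 0.0104, adjusted p = 0.562), with 3 of 4 ECL libraries above every SCL library. Dlgap2 differed by 0.49 (0.06 to 0.92, unadjusted p = 0.0305, adjusted p = 0.649), with 2 of 4 ECL libraries above every SCL library. For Shank1 the difference of ECL from SCL was -0.47 (-1.09 to 0.16, adjusted p = 0.756), for Dlg4 -0.12 (-0.61 to 0.38, adjusted p = 0.948), and for Dlgap1 0.22 (-0.12 to 0.55, adjusted p = 0.800). These intervals reach beyond the size of several falls against control, so a call in one lesion and none in the other is not shown to be a difference. Within libraries, the ratio of Dlg4 to Dlgap2 counts was 0.546 to 0.670 after ECL, below all SCL libraries (0.798 to 1.19) and all controls (0.860 to 1.21). It was singled out with its values known and was not tested, and ECL and SCL libraries overlapped for the 14 other ratios.

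Relatives outside the list showed other patterns. Dlgap4 (SAPAP4), which is expressed widely, rose after ECL by 0.76 ± 0.22 (log2, SE, adjusted p = 0.0182), with 3 of 4 ECL libraries above every control. After SCL its log2 fold change was 0.44 ± 0.22 (adjusted p = 0.164). Dlg5 was at 0.60 ± 0.24 after SCL (adjusted p = 0.0794) and 0.55 ± 0.24 after ECL (adjusted p = 0.0946). Dlgap5, a mitotic spindle protein that shares a domain with the SAPAPs, lay under the minimum with 6.31 to 48.7 normalized counts in control, 68.9 to 104 after SCL and 21.4 to 53.2 after ECL.

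Of Homer and other Shank partners, 12 genes were tested after SCL, of which 0 rose and 1 fell, and 11 after ECL, of which 1 rose and 1 fell. Beside these counts, 24.9% (SCL) and 27.8% (ECL) of all genes tested passed in either direction, and 11.7% and 12.5% passed as lower. The median log2 fold change of the list was -0.11 and -0.19. Homer1, which joins Shank to metabotropic glutamate receptors, was at -0.21 ± 0.17 after SCL and -0.19 ± 0.18 after ECL (adjusted p = 0.388 and 0.439). Homer2 was at -0.25 ± 0.18 and -0.34 ± 0.19 (adjusted p = 0.329 and 0.199). Homer3 was at 0.34 ± 0.23 after SCL (adjusted p = 0.289) and under the minimum after ECL. The gene that fell was Dynll2, a dynein light chain that binds SAPAP1, by 1.57 ± 0.21 after SCL (adjusted p = 0.00130) and by 1.79 ± 0.24 after ECL (adjusted p = 0.000235). Its close paralog Dynll1 rose by 0.67 ± 0.22 after ECL (adjusted p = 0.0379), and whether reads were split between the paralogs was not tested.

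Of 25 MAGUK partners and neighbouring scaffolds tested, 8 fell after SCL and 6 after ECL, and none rose. The background of lower genes was 11.7% after SCL and 12.5% after ECL. The median log2 fold change was -0.22 and -0.17. Iqsec1, an exchange factor for Arf GTPases, fell by 1.11 ± 0.19 and 1.18 ± 0.20 (adjusted p = 0.00288 and 0.000960). Of the large inverted MAGUKs, Magi1 fell by 1.28 ± 0.28 after SCL (adjusted p = 0.00711) and fell by 1.61 ± 0.26 after ECL (adjusted p = 0.000819). Magi3 fell by 0.88 ± 0.18 after SCL (adjusted p = 0.00588) and was at -0.54 ± 0.20 after ECL (adjusted p = 0.0570).

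Of 13 receptors and adhesion proteins held by the scaffolds, 6 fell after SCL (among them Grin2b, Gria1, Gria2, Gria3 and Grm5) and 1 after ECL (Grm5). The background of lower genes was 11.7% and 12.5%. The median log2 fold change of the list was -0.35 and -0.15. Grm5, the metabotropic glutamate receptor that Homer ties to Shank, fell by 0.63 ± 0.13 after SCL (adjusted p = 0.00609) and by 0.52 ± 0.14 after ECL (adjusted p = 0.0132). Gria1, an AMPA receptor subunit, fell by 0.47 ± 0.14 after SCL (adjusted p = 0.0261). Between ECL and SCL no gene of this list passed, so the counts of 6 and 1 are not shown to differ. Of 15 genes for palmitoylation, phosphorylation and turnover of the scaffolds, 1 rose and 1 fell after SCL, and 1 rose and 3 fell after ECL. The background in either direction was 24.9% and 27.8%, so this list did not stand out by its counts. Cdk5, a kinase that phosphorylates PSD-95, rose by 1.096 ± 0.257 and 1.475 ± 0.251 (adjusted p = 0.00977 and 0.00107). Zdhhc17, a palmitoyl transferase, fell by 0.76 ± 0.16 and 0.68 ± 0.16 (adjusted p = 0.00647 and 0.00717). Arc, an activity-induced protein of the postsynaptic density, fell by 1.95 ± 0.18 after SCL (adjusted p = 0.000142) and by 1.23 ± 0.24 after ECL (adjusted p = 0.00236).

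Markers of other cells moved beside the scaffold genes. The 12 microglia markers summed to 23614 to 27673 normalized counts in control, 42748 to 79493 after SCL and 43831 to 61352 after ECL, and 12 of 12 rose after SCL and 9 of 12 after ECL. The 12 neuron markers summed to 127251 to 150820 in control, 111392 to 153219 after SCL and 107144 to 147844 after ECL. Of these 12 markers, 4 and 6 were lower, and none was at 0. Over all genes tested, 24.9% (SCL) and 27.8% (ECL) passed in either direction, and 11.7% and 12.5% passed as lower. None of the 6 excitatory neuron markers passed in either direction after SCL or ECL in the edgeR test, where 1 and 0 had an unadjusted p under 0.05. The part of cell composition in the scaffold values was not tested beyond the scaling to neuron markers, under which Shank1 (-0.996) and Dlgap1 (-0.56) passed after SCL and Shank1 (-1.41) after ECL.

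The genes whose profile over the 13 libraries was most like each family mean were found by the root mean square difference of centred log2 normalized counts among 11148 genes. For the Shank family (2 genes used) they were Gnl1 (0.137), Peli3 (0.138) and Ubqln4 (0.142), beside a median of 0.528 over all genes. This mean is of Shank1, which fell, and Shank2, which passed after neither lesion, so it is the profile of neither gene. For the Dlg family (4 genes) they were Clip4 (0.0810), Ube4b (0.0865) and Ep400 (0.0898), beside a median of 0.406. For the Dlgap family (2 genes, Dlgap1 and Dlgap2, without Dlgap3) they were Calr (0.0894), Gabbr1 (0.115) and N4bp1 (0.120), beside a median of 0.431. The Dlg and Dlgap means also join genes with unlike log2 fold changes after ECL, so they too are the profile of no single gene. Dlg4 was at -0.71 and Dlg2 at 0.03, and Dlgap1 was at -0.49 and Dlgap2 at -0.03.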

How the data were processed

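Poly(A) RNA of 13 CA1 isolates (5 control, 4 SCL, 4 ECL) was amplified with a low-input kit and read in pairs on a NovaSeq6000. Per the submitters' processing notes and the study's methods, the authors trimmed reads with cutadapt 3.5, mapped them with STAR 2.7.8a against mm10, and obtained gene counts with featureCounts 2.0.1 (unstranded, GENCODE M25). The authors deposited these raw counts without normalization. Among counts from 1 to 20, 63.0% to 74.3% were even, so mates may have been counted separately, and halved counts were tried. Totals of 14371152 to 56786613 limit the precision of low genes such as Shank3.

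Groups and replicate numbers were taken from the titles, and sex from the column headings. Each title names a biological replicate. No batch is given. No library held the counts of another.

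Genes whose mean normalized count reached 150 were tested per comparison with edgeR 4.0.16 in R 4.3.3 (glmQLFTest, two-sided, TMM factors over the genes tested, Benjamini-Hochberg adjustment, threshold 0.05). The SE is the absolute log2 fold change over the square root of F. The code was tested on simulated data. Alternatives were DESeq2 1.42.0, other scalings, no minimum, a single fit, a replicate block, a length and GC offset (mgcv 1.9.3), a sex term, halved counts and leaving out each library. A fit without the minimum that kept the scaling was added after seeing the data. Coordinates and lengths came from GENCODE M21 (GRCm38), promoters from RefSeq.

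The scaffold genes and lists were chosen with earlier results of these data known. Named genes were all 10 scaffold genes, their relatives, Homer1, Homer2, Homer3 and Arc, up to 3 called genes per list and comparison with the smallest adjusted p, and the 3 genes nearest each family profile. Of the receptors, further list members called are also named. Some genes that the rule names are not reported here. The remaining marker lists (astrocytes, oligodendrocytes, inhibitory neurons, CA3 and vascular cells) are given in the closing section.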

Additional observations from a re-analysis of the deposited data

Results flagged for a closer look

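The 10 scaffold genes were examined in the 3 groups, 30 sets of libraries in all, for a library far from the others of its group, which chance gives in about 1 of 20 sets. Shank3 in ECL replicate 3 held 132 normalized counts, while the other 3 ECL libraries held 39.2 to 49.0, so the gap took 0.895 of the whole range. That library was the highest of its group for 9 of the 10 scaffold genes, Dlg2 excepted, among them Shank1 (432), Dlg4 (923) and Dlgap2 (1377). Without it, 5 scaffold genes were still called after ECL, with log2 fold changes of -1.90 for Shank1 and -0.94 for Dlg4. Dlg4 in control replicate 3 held 1257 normalized counts beside 932 to 1023 in the other controls, with a gap of 0.719 of the range. The Dlg4 call after ECL was lost without this control (log2 fold change -0.64, adjusted p = 0.0513), and the call after SCL was kept. The origin of both values was not tested.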

How the results depend on the processing

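Shank1 was lower in all 20 alternatives for each lesion. Dlg1, Dlg4 and Dlgap1 were lower in all of them too, but called in 11, 16 and 18 of 20 after SCL and in 10, 13 and 7 of 20 after ECL. Dlgap2 was called in 11 of 20 after SCL and Dlg3 in 6 of 20 after ECL. The number of scaffold genes called was 5 after SCL and 5 after ECL. After SCL it was 2 with TMM factors over all symbols, 2 with scaling to neuron markers, 2 without a mean minimum (of which 1, Dlgap3, was higher), 2 with the length and GC offset and 3 with the replicate block. After ECL it was 1, 1, 2, 2 and 2 under the same settings, 2 with a sex term and 4 with DESeq2, where Dlg3 was not called. Leaving out 1 library gave 3 to 5 after SCL (3 without control replicate 3 and without SCL replicate 1) and 1 to 5 after ECL (1 without control replicate 3 and without ECL replicate 1). Between ECL and SCL it was 0 throughout. Among all genes, calls rose from 2843 to 5393 (SCL) and from 3117 to 8065 (ECL) without a minimum, and to 5479 and 8595 with the scaling kept, where more symbols were tested. Leaving out 1 library gave 1671 to 2800 and 2087 to 3063 calls. ECL against SCL went from 0 calls to 71 with DESeq2, 219 without a minimum, 245 with the scaling kept, 1 in a single fit, 1 with a sex term and 0 to 54 without 1 library (54 without SCL replicate 3). With scaling to neuron markers, higher genes made up 76.5% (SCL) and 78.3% (ECL) of calls. Same-numbered libraries deviated together in some pairs only (correlations from -0.17 to 0.55). Of 8 libraries, 2, 3 and 2 correlated best with their own number (SCL, ECL and ECL against SCL). No pairing by title number was found, and so few libraries cannot exclude one. The column headings carry other numbers, whose pairing was not checked. The replicate block gave 2341 calls after SCL, 2663 after ECL and 0 between lesions. Per length, 7 of 10 control levels moved by over 1 SD with the longest transcript. Where no reason is given, the cause was not tested. Depth limits what can be said of Shank3, whose raw counts were 22 to 117.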

Other observations

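Other cells of the isolates showed smaller counts of change than microglia. Over all genes tested, 24.9% (SCL) and 27.8% (ECL) passed in either direction, and 11.7% and 12.5% passed as lower. Of 8 astrocyte markers, 4 rose after SCL and 3 after ECL, among them Gfap, the intermediate filament of astrocytes, by 0.85 ± 0.14 and 0.73 ± 0.14 (log2, SE, adjusted p = 0.00243 and 0.00198, edgeR). Among the 8, 2 log2 fold changes were negative after SCL and 3 after ECL, with list medians of 0.52 and 0.19. The astrocyte sum was 237407 ± 46714 normalized counts in control, 271392 ± 42912 after SCL and 246828 ± 29259 after ECL (SD). Of 7 oligodendrocyte markers, 2 rose after each lesion, and Mog, a myelin surface protein, rose by 1.24 ± 0.17 and 1.32 ± 0.19 (adjusted p = 0.00130 and 0.000391). The list had 4 positive and 3 negative log2 fold changes after each lesion, with medians of 0.02 (SCL) and 0.01 (ECL). Its sum was 126785 ± 16726 normalized counts in control, 123479 ± 13316 after SCL and 121472 ± 21516 after ECL (SD). Of 6 inhibitory neuron markers, 1 fell after SCL and 2 after ECL, including Gad1, a GABA-synthesizing enzyme, by 0.41 ± 0.13 and 0.62 ± 0.17 (adjusted p = 0.0351 and 0.0171). In this list 3 of 6 log2 fold changes were positive after SCL and 2 of 6 after ECL, with medians of -0.03 and -0.08. Of 3 vascular markers tested, Flt1 fell after both lesions. The other 2 had positive log2 fold changes, and the list medians were 0.28 (SCL) and 0.38 (ECL). Of 7 CA1 markers, Pou3f1 fell after SCL by 0.82 ± 0.17 (adjusted p = 0.00663) and none passed after ECL. Among the 7, 2 log2 fold changes were positive after SCL and 5 after ECL, with list medians of -0.04 and 0.15. The CA1 sum was 10561 ± 1342 normalized counts in control, 9775 ± 1157 after SCL and 11025 ± 1033 after ECL (SD). None of the 2 CA3 markers or of the 2 dentate granule cell markers tested passed after SCL or ECL in the edgeR test, with 1 CA3 marker at an unadjusted p under 0.05 after ECL.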
